A study of Mus musculus with 2 samples.

Results

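The genes described here encode the proteasome and its helpers. They were taken from 2 arrays that compared Lamtor1-deficient (KO) with wild-type (WT) mouse CD4+ T cells. Members were all genes whose name in the scanner files begins with Psma, Psmb, Psmc, Psmd, Psme, Psmf or Psmg followed by a digit, which gave 49 of the 31705 gene names on the array. Each gene was represented by its brightest probe. Of the 49 names, 47 were measured, meaning that 1 RNA or both gave a signal well above background on each array, among 14874 measured genes in all. All 47 were well above background in both RNAs on both arrays. The members fall into 14 subunits of the constitutive core, 5 genes of the immunoproteasome (Psmb8, Psmb9, Psmb10, Psme1 and Psme2), 17 subunits of the 19S particle, 3 chaperones of the 19S base, 4 core assembly chaperones, 3 other activators or inhibitors and 1 gene, Psmc3ip, that shares the naming pattern without being a subunit. The remaining 2 names, Psmb11 and Psma8, were not well above background in either RNA on either array.

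The KO RNA came from Lamtor1-deficient CD4+ T cells and the WT RNA from WT CD4+ T cells, both of C57BL/6J mice. Naive CD4+CD62L+ cells were sorted from spleen and, per the labels, kept for 5 days under antibodies to CD3 and CD28, with IL-2 (50 ng/ml) and recombinant human TGFβ (1 ng/ml). The extraction label speaks of naive cells, so whether the RNA preceded or followed the culture is not settled by the labels, nor do they say how Lamtor1 was deleted, the age of the mice or how many were used. Both arrays were hybridised with 1 KO and 1 WT extract, in swapped dyes. There was thus a single extract per genotype and no biological replication. Every ± below is the technical SD of the 2 arrays, no test was possible, and values were read by rules of size. A log2 ratio is KO over WT, averaged over the arrays, and paired ratios or intensities come first from the array that carried KO in Cy5 (KO-Cy5 array), then from its dye swap (KO-Cy3 array).

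Lamtor1, the targeted gene and a scaffold subunit of the lysosomal Ragulator complex, had normalized log2 intensities of 8.08 and 8.14 in KO, against 10.04 and 10.07 in WT, a log2 ratio of -1.95 ± 0.03. The arrays resembled each other closely for the proteasome genes, with a median technical SD of 0.09 over the 47 members and 0.11 over all measured genes. Markers of other cells also differed between the RNAs. Over all measured genes, 2.46% were at least 2-fold higher in KO on both arrays and 6.88% at least 2-fold lower. Of the 7 measured markers of CD8 T and NK cells, 4 (Klrd1, Klrc1, Klrb1c and Tyrobp) were at least 2-fold higher. Among them, Klrb1c and Tyrobp were well above background in KO alone. They thus entered the count only through the RNA in which they were high. Cd8a was at 0.67 ± 0.03, whereas Cd8b1 was lower in KO on both arrays, at -0.55 ± 0.01. This list summed to processed signals of 4679 and 4517 in KO, against 1156 and 1133 in WT. The myeloid and dendritic list summed to 32326 and 27246 in KO, against 14772 and 13767 in WT. Of its 7 measured markers, 3 were higher by 2-fold or more and 1 lower by as much, while Adgre1 and Cd14 were never above background. Lyz2, S100a8 and S100a9 were well above background on both arrays only in KO, so they too counted as measured through KO. The CD4 T cell list summed to 122444 and 103298 in KO, against 148285 and 128393 in WT, and 3 of its 8 markers, Cd4, Cd5 and Trat1, were at least 2-fold lower in KO. Of 5 B cell markers only Cd79b was measured, at a log2 ratio of 0.62, and Cd79a was never above background. The part of these marker differences in the results below was not tested, and in bulk RNA fewer cells of a type and less RNA per cell cannot be told apart.

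The proteasome is the main protease of the cytosol and nucleus. Its barrel-shaped core is built of alpha rings, which gate the entry, and beta rings, which hold the proteolytic sites. The 19S particle docks on the core, binds ubiquitin-tagged proteins, removes the tag, unfolds the protein and feeds it in. Lymphoid cells, and other cells exposed to interferon gamma, replace the constitutive catalytic subunits Psmb5, Psmb6 and Psmb7 by Psmb8, Psmb9 and Psmb10, and make the activator ring of Psme1 and Psme2. This immunoproteasome cuts proteins into peptides suited to presentation on MHC class I molecules. Assembly of the core needs a set of dedicated chaperones.

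The body of the proteasome had nearly the same transcript levels in KO and WT cells, whereas parts of the immunoproteasome and the core assembly chaperones were lower in KO. All 31 genes of the constitutive core and the 19S particle lay within 1.5-fold of equal on both arrays, a band that held 67.5% of all measured genes. In contrast, Psmb9 was 3.52-fold lower in KO and Psmb8 was 1.71-fold lower, and Psmg1 and Psmg4 were 2.13-fold and 2.00-fold lower. The median log2 ratio was -0.61 for the 5 immunoproteasome genes, -0.04 for the core, 0.07 for the 19S particle and -0.02 for all measured genes. Of the 47 measured members, 0 were at least 2-fold higher in KO on both arrays, against 2.46% of all measured genes, and 2 (Psmb9 and Psmg1) were at least 2-fold lower, against 6.88%. At the 1.5-fold step, 0 were higher, against 6.78%, and 4 (Psmb8, Psmb9, Psmg1 and Psmg4) were lower, against 13.5%. As shares of the whole family, these counts were therefore not above those of all genes. Disregarding size, 13 members were higher in KO on both arrays and 21 were lower, against 38.6% and 44.3% of all measured genes, and the remaining 13 changed sign between arrays.

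**Figure D1:**
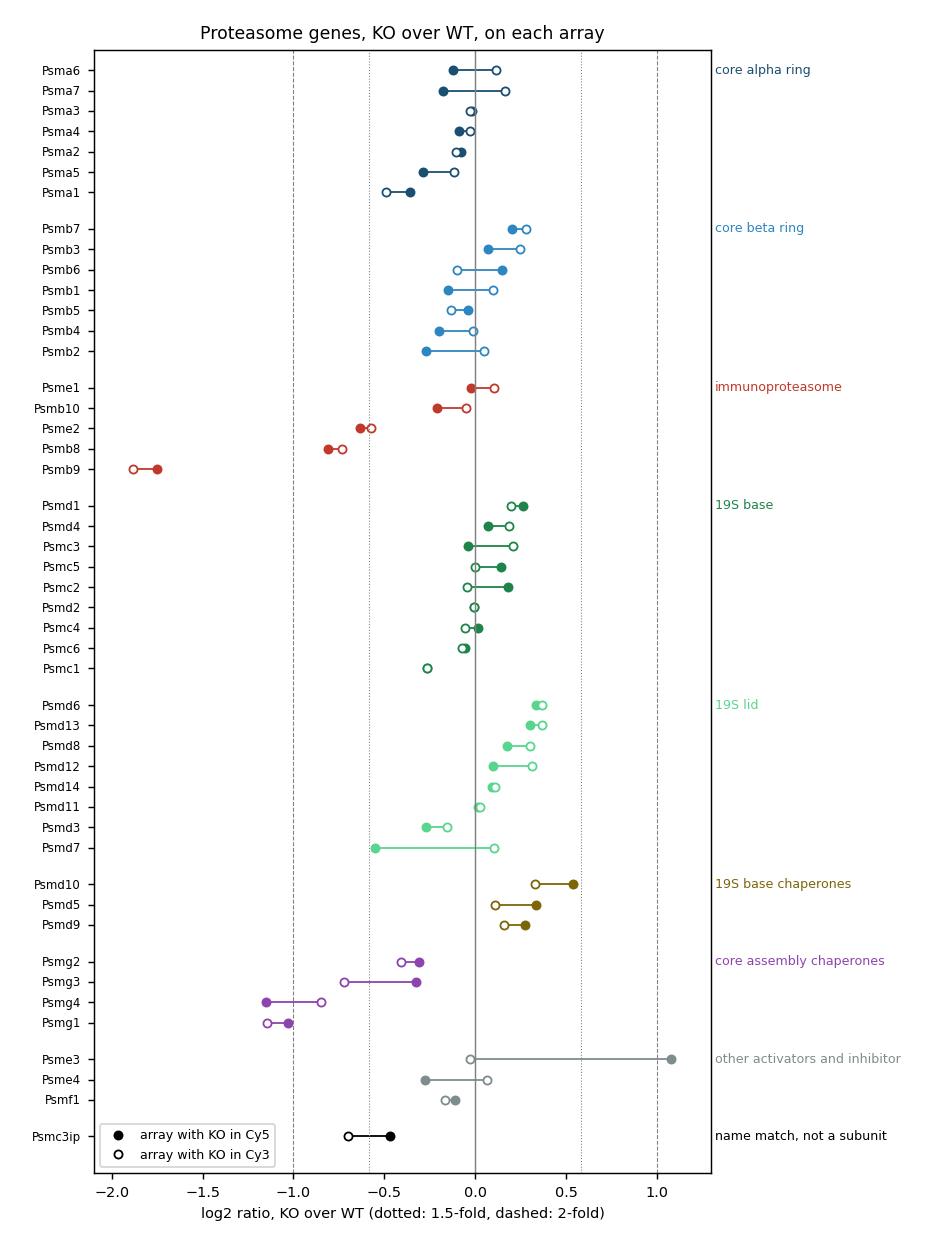
Log2 ratio of KO over WT for the 47 measured proteasome-named genes (x axis; dotted lines at 1.5-fold, dashed at 2-fold), grouped by role; filled points are the KO-Cy5 array, open points the KO-Cy3 array, and a line joins them. Core and 19S genes all sit inside the dotted lines, Psmb9 lies farthest to the left at -1.75 and -1.88, and Psme3 has the widest gap between arrays.

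Among the immunoproteasome genes, Psmb9 differed most. Psmb9 encodes the immune catalytic subunit that takes the place of Psmb6. Its log2 intensity was 11.00 and 10.76 in KO, against 12.76 and 12.64 in WT, and the ratio was -1.75 on the KO-Cy5 array and -1.88 on the KO-Cy3 array. Both KO values lay below both WT values. Of the 14874 measured genes, 316 (2.12%) had a lower ratio than Psmb9. Its probe lies on chromosome 17 at chr17:34319174-34319233 in mm9, the build of the files, inside the MHC region. No annotation of that build was used here, so the probe's place within the exons or the UTR is not given.

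Psmb8, which replaces Psmb5 and carries the chymotrypsin-like activity of the immunoproteasome, had log2 intensities of 12.92 and 12.88 in KO, against 13.73 and 13.61 in WT. The ratio was -0.77 ± 0.06, again with both KO values below both WT values, and Psmb8 was lower by less than Psmb9 on both arrays: Psmb9 minus Psmb8 was -1.05 ± 0.15 on the log2 scale. With median centring Psmb8 did not reach 1.5-fold on both arrays, although its mean ratio was -1.39, or -1.02 relative to all measured genes. Psmb10, which replaces Psmb7 and is encoded outside the MHC region, had 13.06 and 13.10 in KO, against 13.27 and 13.15 in WT. Its ratio of -0.13 ± 0.11 was about as small as its technical SD. The 3 immune catalytic subunits thus spanned -1.82 to -0.13, whereas the constitutive subunits they replace lay between -0.09 and 0.24.

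Psmb6, the constitutive caspase-like subunit, had 12.89 and 12.74 in KO, against 12.75 and 12.84 in WT, and the sign of its ratio changed between arrays. Psmb5, the chymotrypsin-like subunit, had 13.77 and 13.81 in KO, against 13.81 and 13.95 in WT, a ratio of -0.09 ± 0.07. Psmb7, the trypsin-like subunit, had 10.62 and 10.37 in KO, against 10.42 and 10.09 in WT, and at 0.24 ± 0.05 it was the highest of the core. Set against its constitutive partner, each immune subunit had the lower KO over WT ratio. The difference was -1.84 ± 0.08 for Psmb9 minus Psmb6, corresponding to a 3.58-fold lower relative amount in KO. It was -0.68 ± 0.12 for Psmb8 minus Psmb5 (1.60-fold lower) and -0.37 ± 0.06 for Psmb10 minus Psmb7 (1.29-fold lower).

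Psme1 and Psme2, the alpha and beta chains of the interferon-inducible activator ring, differed from each other although their probes lie 6.1 kb apart on chromosome 14. Psme2 had 13.81 and 13.80 in KO, against 14.45 and 14.38 in WT, with both KO values below both WT values. Its ratio was -0.61 ± 0.04 and reached 1.5-fold on the KO-Cy5 array but fell just short of it on the other, at -0.58. Psme1 had 12.56 and 12.56 in KO, against 12.58 and 12.46 in WT, a ratio of 0.04 ± 0.09 with opposite signs on the arrays. Psme2 minus Psme1 was -0.64 ± 0.05. A second Psme2 probe on chromosome 14 gave ratios of -0.37 and -0.25. A further probe that carries the name Psme2 but is placed on chromosome 11 (chr11:48759630-48759689, mm9) gave 0.30 and 0.54, so its target is uncertain. Psme2 holds the middle of the 5 ratios: with the median over a gene's probes, the immunoproteasome median was -0.31 in place of -0.61.

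**Figure D2:**
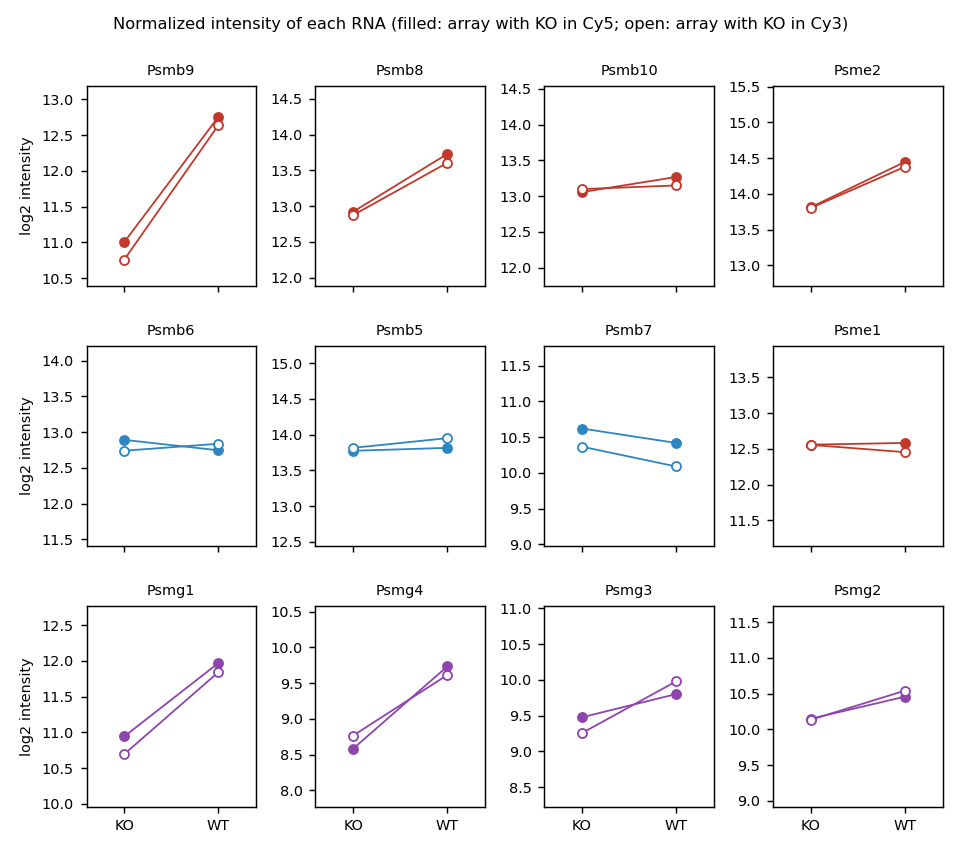
Normalized log2 intensity of the KO RNA (left in each panel) and the WT RNA (right) for 4 immune genes (top row), the constitutive subunits that pair with the immune ones and Psme1 (middle row) and the 4 core assembly chaperones (bottom row); filled points joined by a line are the KO-Cy5 array, open points the KO-Cy3 array. All panels span the same height on the log2 scale, and Psmb9 has the steepest lines, with KO at 11.00 and 10.76 and WT at 12.76 and 12.64.

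The promoters of these subunits are printed because Psmb9 and Psmb8 were lower in KO by more than 1.5-fold while Psmb6 and Psmb5 stayed within it. RefSeq promoters (GRCm38.p6) of 250 bases before and 50 after the annotated start were matched by symbol for 41 of the 49 members, and 8 had no entry. Each is written 5′ to 3′ on the gene's strand, and capitals mark a motif match on either strand. Psmb9 is at chr17:34187281-34187580 on the minus strand, Psmb8 at chr17:34197945-34198244 on the plus strand, Psmb6 at chr11:70525107-70525406 on the plus strand and Psmb5 at chr14:54617946-54618245 on the minus strand.
Psmb9: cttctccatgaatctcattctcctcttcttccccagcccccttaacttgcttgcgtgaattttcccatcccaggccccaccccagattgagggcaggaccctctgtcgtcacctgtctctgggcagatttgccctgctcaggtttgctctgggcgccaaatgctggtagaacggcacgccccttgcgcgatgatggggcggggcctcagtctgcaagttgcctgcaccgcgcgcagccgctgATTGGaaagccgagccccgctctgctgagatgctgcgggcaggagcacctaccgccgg
Psmb8: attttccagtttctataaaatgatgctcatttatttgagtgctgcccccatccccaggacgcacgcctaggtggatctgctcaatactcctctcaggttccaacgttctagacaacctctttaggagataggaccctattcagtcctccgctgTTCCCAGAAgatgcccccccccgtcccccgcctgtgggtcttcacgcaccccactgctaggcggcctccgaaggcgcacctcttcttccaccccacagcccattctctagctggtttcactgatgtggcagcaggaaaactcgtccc
Psmb6: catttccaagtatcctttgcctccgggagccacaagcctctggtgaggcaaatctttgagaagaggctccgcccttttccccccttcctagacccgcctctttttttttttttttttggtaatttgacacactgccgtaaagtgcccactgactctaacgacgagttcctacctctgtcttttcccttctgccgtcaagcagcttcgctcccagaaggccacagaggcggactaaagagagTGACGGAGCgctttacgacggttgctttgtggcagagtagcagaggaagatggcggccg
Psmb5: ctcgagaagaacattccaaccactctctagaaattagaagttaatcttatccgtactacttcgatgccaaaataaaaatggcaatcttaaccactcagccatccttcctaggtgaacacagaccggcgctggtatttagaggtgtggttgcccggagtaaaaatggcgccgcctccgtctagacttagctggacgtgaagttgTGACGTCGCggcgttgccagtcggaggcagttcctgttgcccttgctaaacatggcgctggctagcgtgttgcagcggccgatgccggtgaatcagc

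Motifs were searched for on both strands, and no match in the printed windows overlapped another. The antioxidant response element TGACNNNGC, through which Nrf factors are known to drive proteasome genes, was found in the windows of Psmb5 and Psmb6, at -47 and -9, the position of the match's first base with the annotated start as 1. It was present in 2 of 11 core promoters, 0 of 5 immunoproteasome promoters, 2 of 14 promoters of the 19S particle and 12.4% of all 32851 promoters. The CCAAT box, read as ATTGG on the strand shown, was found at -8 in Psmb9, the only immunoproteasome match. It was in 6 of 11 core promoters and 4 of 14 19S promoters, against 37.4% of all promoters. The gamma-activated sequence TTCNNNGAA was found at -97 in Psmb8, in 0 of 11 core and 1 of 14 19S promoters, and in 8.3% of all promoters. The interferon response factor letters GAAANNGAA were found in Psme1 among the 5 immunoproteasome genes. They were also in 2 of 11 core and 2 of 14 19S promoters, and in 8.6% of all promoters. The E-box CACGTG was found in Psmb10, in 1 of 11 core and 0 of 14 19S promoters, and in 7.2% of all promoters. A missing match says only that these letters were not in the window. The Psmb9 window overlaps that of Tap1, which runs the opposite way, by 275 of 300 bases, with 226 bases between the annotated starts.

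Psmb9, Tap1, Psmb8 and Tap2 follow each other on chromosome 17, their probes spanning 33.9 kb in mm9. All 4 were lower in KO on both arrays, against 44.3% of all measured genes. Tap1 and Tap2 encode the transporter that carries peptides into the endoplasmic reticulum for loading on class I molecules. Tap1 had log2 intensities of 9.05 and 8.86 in KO, against 10.34 and 10.35 in WT, and ratios of -1.29 and -1.48. Tap2 had 12.81 and 12.65 in KO, against 13.63 and 13.43 in WT, and ratios of -0.82 and -0.78. Tap1 and Tap2 belong to a list of 18 known regulators and neighbours of the immunoproteasome, all measured, with a median ratio of -0.43. Of the 18, 0 were higher by 2-fold or more on both arrays and 2, Tap1 and the interferon gamma receptor chain Ifngr1, were lower by as much. At 1.5-fold, 2 were higher and 5 were lower. The shares over all measured genes were 2.46% and 6.88% at 2-fold and 6.78% and 13.5% at 1.5-fold. Ifngr1 had 11.33 and 11.32 in KO, against 12.82 and 12.90 in WT, a ratio of -1.54 ± 0.06, while the other receptor chain, Ifngr2, was higher in KO at 0.78 ± 0.19. The kinases bound to that receptor also went opposite ways, with Jak1 at 0.79 ± 0.10 and Jak2 at -0.81 ± 0.18.

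The list also holds transcription factors, and their part in the ratio of Psmb9 was not tested. Irf1, an interferon-induced activator of Psmb9 and Tap1, had 12.66 and 12.57 in KO, against 12.75 and 12.81 in WT, a ratio of -0.16 ± 0.10. Nlrc5, the transactivator of class I genes, was at -0.48 ± 0.04, below 1.5-fold. Stat2 was at -0.64 ± 0.11, Irf8 at -0.58 ± 0.03 and Irf2 at -0.46 ± 0.23, each lower in KO on both arrays. Irf9 was higher in KO on both arrays, at 0.28 ± 0.08. Among class I molecules H2-K1 was at -0.92 ± 0.04, H2-D1 at -0.40 ± 0.20 and their shared light chain B2m at -0.28 ± 0.07. Psmb9, itself not in the list, had a lower ratio than all 18 of its genes.

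**Figure D3:**
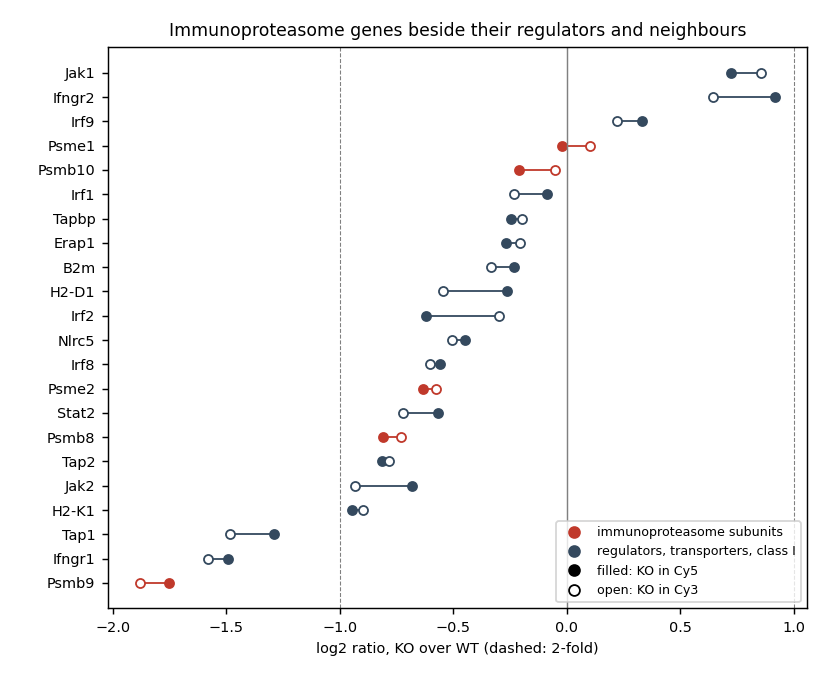
Log2 ratio of KO over WT (x axis; dashed lines at 2-fold) for the 5 immunoproteasome genes (red) and 17 regulators, transporters and class I genes of the list (grey-blue), ordered by the mean of the arrays; filled points are the KO-Cy5 array, open points the KO-Cy3 array. Psmb9 is lowest, next to Ifngr1 and Tap1, and Psme1 and Psmb10 lie near 0.

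In the constitutive core the 14 genes ranged narrowly, between -0.42 and 0.24. Their SD across genes was 0.15, against 0.67 over all measured genes. Of the 14, 2 (Psmb3 and Psmb7) were higher in KO on both arrays and 7 lower, against 38.6% and 44.3% of all measured genes, so the count of lower genes was near the background. Of those 7, 5 were alpha subunits. The alpha ring had a median of -0.06 (-0.12 and -0.03 on the arrays) and the beta ring of -0.02 (-0.04 and 0.05). The lowest was Psma1, an alpha ring subunit, with 11.90 and 11.87 in KO, against 12.26 and 12.36 in WT, a ratio of -0.42 ± 0.09. Psma1 lies on chromosome 7, as Lamtor1 does, with 12.35 Mb between their probes. The other members on that chromosome lay farther away: Psmd13 (39.02 Mb) was at 0.34, Psmd8 (79.1 Mb) at 0.24 and Psmc4 (80.23 Mb) at -0.02. Whether position on the chromosome bears on these ratios was not tested. The next lowest were Psma5, another alpha ring subunit, at -0.20 ± 0.12 and Psmb2, a noncatalytic beta subunit, at -0.11 ± 0.23. The highest after Psmb7 was Psmb3, a noncatalytic beta subunit, with 13.09 and 13.26 in KO, against 13.02 and 13.02 in WT, a ratio of 0.16 ± 0.12. Psmb6 followed at 0.02 ± 0.17. The other 8 core genes lay between -0.11 and -0.0019.

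In the 19S particle 8 of 17 genes were higher in KO on both arrays, against 38.6% of all measured genes, and 4 were lower, against 44.3%, with 0 beyond 1.5-fold. The count of higher genes was near that background. The lid, which removes ubiquitin, held 6 of the 8 higher genes and had a median of 0.15 (0.10 and 0.21 on the arrays). The base, with the ATPase ring that unfolds the substrate, had a median of 0.07. On the single arrays the base median was 0.01 and -0.004, so its sign was not repeated. Psmd6, a lid subunit, had 10.58 and 10.54 in KO, against 10.25 and 10.17 in WT, a ratio of 0.35 ± 0.02. Psmd13, also of the lid, had 10.99 and 10.93 in KO, against 10.68 and 10.56 in WT, a ratio of 0.34 ± 0.05. For both genes the KO values lay above the WT values on both arrays. Psmd8, a further lid subunit, was at 0.24 ± 0.09, and Psmd14, the deubiquitinase of the lid, was at 0.10 ± 0.01. Psmd1, the scaffold of the base, was at 0.23 ± 0.05, and Psmd4, a ubiquitin receptor, at 0.13 ± 0.08.

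The lowest gene of the 19S particle was the ATPase Psmc1, with 12.42 and 12.38 in KO, against 12.69 and 12.65 in WT. Its ratio of -0.26 ± 0.001 was almost the same on both arrays, and a second probe gave -0.29. Psmd3, of the lid, was at -0.21 ± 0.08. Psmd7, the partner of Psmd14, averaged -0.22 ± 0.46 and was lower in KO on the KO-Cy5 array and higher on the other, so its direction was not determined. The 19S median exceeded the core median by 0.11 on the log2 scale, a small difference. On the single arrays the difference was 0.18 and 0.13, since medians of averaged ratios need not lie between those of the arrays.

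Centring each array on its median in place of loess shifted the median of all measured genes to -0.37 and that of the 19S particle to -0.49, and the split of all genes at 2-fold changed to 111 higher and 881 lower, against 366 and 1024 with loess. At 1.5-fold it was 235 and 1733, against 1009 and 2008, and with the scanner software's processed signals it was 2068 and 2626. Ratios under that setting are therefore read against the median of all genes. Relative to it Psmd6 was at 0.18, Psmd13 at 0.15 and Psmb7 at 0.08, still above 0, while Psmb3 was at -0.09. Relative to all measured genes under median centring, the core was at -0.25, the 19S particle at -0.11 and the immunoproteasome at -0.87. The immunoproteasome was thus the lowest of the 3 groups with either normalization.

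**Figure D4:**
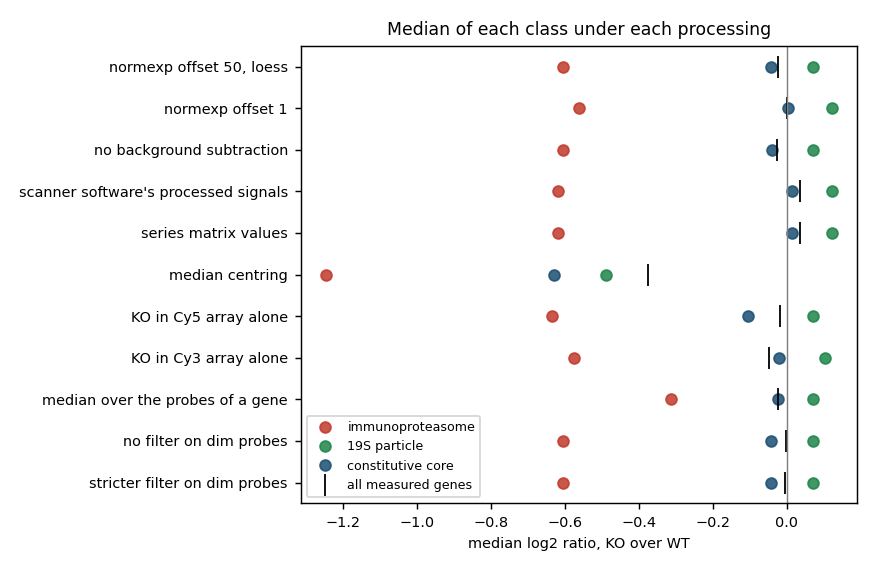
Median log2 ratio of KO over WT (x axis) of the immunoproteasome (red), the 19S particle (green) and the constitutive core (blue) under each processing (y axis), with the median of all measured genes as a black tick. The immunoproteasome lies to the left of both other groups throughout, at -0.61 with the processing used and -0.31 with the median over a gene's probes; median centring moves every group and the tick to the left.

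The 3 chaperones that assemble the 19S base were all higher in KO on both arrays, against 38.6% of all measured genes. Of these 3, 0 were beyond 1.5-fold, against 6.78% higher and 13.5% lower among all measured genes. Psmd10, also known as gankyrin, had 8.57 and 8.58 in KO, against 8.03 and 8.25 in WT, a ratio of 0.43 ± 0.15, but a dimmer second probe gave 0.05 and -0.16. Psmd5 was at 0.22 ± 0.16 and Psmd9 at 0.22 ± 0.08. Under median centring, relative to all measured genes, Psmd10 was at 0.45, Psmd9 at 0.37 and Psmd5 at 0.15.

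The 4 chaperones that assemble the core, Psmg1 to Psmg4, were lower in KO on both arrays, against 44.3% of all measured genes. Their median was -0.76. At least 1.5-fold lower were 2 of the 4, Psmg1 and Psmg4, against 13.5% of all measured genes. Psmg1 and Psmg2 form a dimer that lines up the alpha subunits, and Psmg3 and Psmg4 form a dimer that acts on the same ring. Psmg1 had log2 intensities of 10.94 and 10.69 in KO, against 11.97 and 11.84 in WT, a ratio of -1.09 ± 0.08, and a second probe gave -0.86 and -0.92. Psmg4 had 8.58 and 8.77 in KO, against 9.73 and 9.61 in WT, a ratio of -0.999 ± 0.215. For both genes every KO value lay below every WT value. Psmg1 did not reach 2-fold on both arrays with the scanner software's processed signals (mean ratio -1.05), with median centring (-1.67, or -1.30 against the median of all genes) or with the median over its probes (-0.99). Psmg3 had 9.48 and 9.26 in KO, against 9.80 and 9.98 in WT, a ratio of -0.52 ± 0.28 that passed 1.5-fold on 1 array only. Psmg2 had 10.15 and 10.14 in KO, against 10.46 and 10.54 in WT, a ratio of -0.36 ± 0.07. On both arrays Psmg1 had a lower ratio than its partner Psmg2, and Psmg4 than its partner Psmg3.

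The promoters of Psmg1 and Psmg4 are shown as those of the chaperones that passed 1.5-fold, in the same format and build. Psmg1 is at chr16:95990911-95991210 on the minus strand and Psmg4 at chr13:34162714-34163013 on the plus strand.
Psmg1: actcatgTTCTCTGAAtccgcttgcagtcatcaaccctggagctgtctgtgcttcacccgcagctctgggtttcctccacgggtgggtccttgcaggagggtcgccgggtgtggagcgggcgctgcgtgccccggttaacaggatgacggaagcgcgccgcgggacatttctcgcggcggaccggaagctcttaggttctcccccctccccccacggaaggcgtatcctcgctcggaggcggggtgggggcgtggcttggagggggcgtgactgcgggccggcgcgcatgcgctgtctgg
Psmg4: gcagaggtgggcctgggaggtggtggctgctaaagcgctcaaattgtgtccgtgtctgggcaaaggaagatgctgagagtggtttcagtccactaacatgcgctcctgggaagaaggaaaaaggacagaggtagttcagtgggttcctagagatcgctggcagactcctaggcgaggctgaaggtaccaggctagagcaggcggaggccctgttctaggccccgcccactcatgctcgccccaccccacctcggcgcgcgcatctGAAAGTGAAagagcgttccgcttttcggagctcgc
In Psmg1 the capitals mark TTCNNNGAA at -243, found in 1 of 3 promoters of the core assembly chaperones and 8.3% of all promoters. In Psmg4 they mark GAAANNGAA at 16, also found in 1 of 3, and in 8.6% of all promoters. The antioxidant response element and the CCAAT box were in 0 of 3, against 12.4% and 37.4% of all promoters.

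The remaining named genes showed no shared direction. Psme3, a nuclear activator ring related to Psme1 and Psme2, had 10.30 and 9.81 in KO, against 9.22 and 9.84 in WT, so its ratios of 1.08 and -0.03 did not repeat. Its technical SD of 0.78 was the largest of the 47. Psme4, a nuclear activator that caps the core, was at -0.11 ± 0.24, and Psmf1, an inhibitor of the core, at -0.14 ± 0.04. Psmc3ip, a factor of meiotic recombination that matched by name only, was at -0.58 ± 0.17 and was lower on both arrays. Psmb11, the catalytic subunit of the thymic epithelium, and Psma8, the alpha subunit of the testis, were not well above background, and neither was Foxn1, the master factor of thymic epithelium. Epcam, the other gene of the thymic epithelium list, was measured, at 0.23 ± 0.18 and higher in KO on both arrays. In all, 11 members had more than 1 probe, and 10 of the 12 additional probes lay within 0.3 of the probe used on the log2 scale.

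Genes of proteins that work with the proteasome under other names had small ratios. Of 17 measured partners, 0 were beyond 1.5-fold on both arrays, against 6.78% higher and 13.5% lower among all measured genes. The median ratio of the partners was -0.03. Pomp, which matures the core together with the Psmg chaperones, was at -0.0045 ± 0.13, with 11.96 and 11.87 in KO, against 11.87 and 11.97 in WT. Adrm1, a ubiquitin receptor of the base, was at 0.24 ± 0.13, and Sem1, the smallest lid protein, at 0.08 ± 0.32. The 9 genes of ubiquitin and its activation had a median of 0.01, with 0 beyond 1.5-fold, against the same shares. Among 11 measured regulators of proteasome genes, the counts were near those shares over all measured genes. Of the 11, 1 was at least 1.5-fold higher (Foxo1, 0.72 ± 0.18) and 1 at least 1.5-fold lower (Nfyb, a CCAAT-binding subunit, -1.05 ± 0.23). The other subunits of that CCAAT-binding factor were higher in KO on both arrays, Nfyc at 0.59 ± 0.09 and Nfya at 0.32 ± 0.07. Nfe2l1, the activator that replenishes proteasome genes when proteasome activity is short, was at -0.50 ± 0.21, and its relative Nfe2l2 at 0.48 ± 0.28. Both missed 1.5-fold on 1 array.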

How the data were processed

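Two-colour Agilent whole mouse genome arrays compared RNA of KO and WT CD4+ T cells on 2 arrays with exchanged dyes. Per the file headers, the scanner tables give, for every spot and channel, an uncorrected mean intensity with its local background, and a processed intensity after background subtraction and linear-lowess dye normalization. Values of the authors' series matrix are log10 Cy5/Cy3 ratios, which equalled the scanner software's log10 ratio within 1e-06 for all 44397 values per array; the median of each column was 0. Per the file headers the software was Agilent Feature Extraction 10.7.3.1, whereas the submitters' processing notes give 10.5.1.1.

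Background was modelled by normexp with an offset of 50, and loess was fitted per array, in limma 3.58.1 (R 4.3.3; package data.table, version 1.17.8), with the 1377 control spots at weight 0. Outlier spots (206 on the KO-Cy5 array, 214 on the other) were left out, no spot was saturated, spots of a probe were averaged, and the labelled dyes gave each ratio's direction, KO over WT. The 2 arrays count as 1 replicate, which limits precision, and rules of size replaced tests: at least 2-fold or 1.5-fold the same way on both arrays. Levels per channel are log2 intensities after loess and Aquantile scaling, and levels of different probes were not compared. Names of genes outside the family were updated through RefSeq, build GRCm38.p6. The steps were tested on simulated data. Python 3.11.15, pandas 2.3.3 and matplotlib 3.10.9 were used for counts and plots. Named genes were the immunoproteasome, members beyond 1.5-fold, the 3 highest and lowest of core and 19S, all members outside these classes, the catalytic subunits, and listed context genes beyond 2-fold or closest to the proteasome. Foxo1, Nfya, Nfyb, Nfyc, Psmc4, Epcam, Jak1, Jak2, Ifngr2, Tap2, H2-K1, H2-D1, B2m, Psmd1, Psmd4, Psmd14, Cd79b, Cd8a, Cd8b1, Stat2, Irf2, Irf8 and Irf9 were added after their values were seen. Single values of a few listed genes are not reported here. Members and lists were chosen with earlier results of these data known.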

Additional observations from a re-analysis of the deposited data

How the results depend on the processing

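The immunoproteasome minus core difference of medians was below 0 in all 11 alternatives, between -0.73 and -0.29. The 19S minus core difference was above 0 in all 11, between 0.09 and 0.18. Not all of these were separate checks. Dropping or tightening the filter on dim probes could not change them, since all genes of the groups were well above background in both RNAs. The series matrix values repeated those of the processed signals. The immunoproteasome median (-0.61 as reported) was -0.56 with a normexp offset of 1, -1.25 with median centring, -0.31 with the median over a gene's probes and -0.77 for Psmb8, Psmb9 and Psmb10 alone. Its difference from the core (-0.56 as reported) was -0.64 with the scanner's processed values and with the series matrix, -0.62 with median centring, -0.53 on the KO-Cy5 array alone, -0.29 with the median over probes and -0.73 for the 3 catalytic subunits alone. The core median was -0.63 with median centring and -0.10 on the KO-Cy5 array alone. The 19S median was 0.12 with offset 1, 0.12 with the processed values and with the series matrix, -0.49 with median centring and 0.10 on the KO-Cy3 array alone, and its difference from the core was 0.18 on the KO-Cy5 array alone. Members at least 2-fold lower numbered 1, Psmb9, with the processed signals, the series matrix values, median centring and the median over probes, since Psmg1 was then short of 2-fold on at least 1 array. Members at least 2-fold higher numbered 1, Psme3, on the KO-Cy5 array alone, and members at least 1.5-fold higher numbered 1 there (Psme3) and 1 with the processed signals and the series matrix values (Psmd10). The number at least 1.5-fold lower ranged between 3 with median centring and 6 on the KO-Cy3 array alone. Over 10 alternatives the mean ratio of Psmb9 lay between -2.41 and -1.75, that of Psmb8 between -1.39 and -0.73, that of Psmg1 between -1.67 and -0.99 and that of Psmg4 between -1.46 and -0.85. Except for the centring, whose shift of all genes is given above, the cause of these movements was not tested. No paired analysis was possible because each genotype gave only 1 extract. The values cover labelling and hybridisation error only, and the offset shrinks the ratios of dim probes.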

Other observations

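The RefSeq names add a gene that the name rule does not reach. The probe named Fam192a in the scanner files now belongs to Psme3ip1, a partner of the nuclear activator Psme3. Its log2 ratio was 0.57 ± 0.19, with 0.70 on the KO-Cy5 array and 0.43 on the KO-Cy3 array, so that it was higher in KO on both arrays, whereas Psme3 itself was not. Of the proteasome partners, the deubiquitinase Uchl5 was at 0.41 ± 0.20 and Zfand5, an activator of the proteasome, at 0.44 ± 0.11, both higher in KO on both arrays. These genes were picked after their values were seen.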
